A study of Mus musculus with 3 samples.

Results

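Of the 19 Wnt ligand genes of the mouse, 8 lie in 4 neighbouring pairs, namely Wnt1 with Wnt10b, Wnt6 with Wnt10a, Wnt3 with Wnt9b and Wnt3a with Wnt9a. They were examined in H2AK119ub ChIP-seq of newborn tongue epithelium. All regions that carried the name of 1 of these 8 genes in the submitters' annotation, or that overlapped the stretch from the first to the last base of a pair, were taken. This gave 10 regions of 15931, with 6 of 7838 in replicate 1 and 4 of 8093 in replicate 2. The study made 2 H2AK119ub libraries, labelled as biological replicates, and an input library that was not used here (1 of 3 libraries). Each was made from 4 ng of DNA from EpCAM-stained, sorted cells of control mice at postnatal day 0, after the part of the tongue with the circumvallate papillae had been removed. The labels call the mice control and name no allele, and nothing in them says whether animals were pooled. Both replicates form 1 group, so the values below describe where the mark was called, and no treated or mutant group was compared.

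Wnt proteins are secreted, lipid-modified signals that bind Frizzled receptors together with the co-receptors Lrp5 and Lrp6. In the canonical branch this stabilises beta-catenin, which acts with TCF/LEF factors on target genes. Neighbouring Wnt genes are remnants of an old gene cluster that was duplicated in vertebrate ancestors, so that Wnt3 and Wnt3a, Wnt9a and Wnt9b, and Wnt10a and Wnt10b are paralogs in different pairs. In tongue epithelium, Wnt signalling is needed for the taste papillae, Wnt10b is known from developing fungiform papillae, and loss of WNT10A in people gives a smooth tongue with few papillae. H2AK119ub, histone H2A carrying ubiquitin at a lysine near its end, is placed by Polycomb repressive complex 1 and is common at silent developmental genes.

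The lists give the bounds, location class (promoter, gene body, distal or intergenic) and gene names of each region, with no height, read count or p-value. Depth is therefore unknown, and a region present in all cells cannot be told from one present in some of them. The median promoter-class region was 8.08 kb wide in replicate 1 and 6.84 kb in replicate 2. A repressive mark does not show which cells were sorted. Of 8 basal keratinocyte markers, Krt15 was named by promoter regions in both replicates and Krt5 in 1, while Epcam, Krt14, Trp63, Itga6, Itgb4 and Cdh1 were named in neither, beside 8.82% of all protein-coding genes named in both. Of the other marker lists, 2 of 6 differentiated keratinocyte, 3 of 5 taste, 2 of 6 fibroblast, 2 of 4 skeletal muscle, 0 of 4 endothelial, 1 of 3 immune and 3 of 4 neuron and glia markers were named in both. These counts are too small to set a cell type apart.

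Promoter regions named Wnt1, Wnt6, Wnt10a and Wnt3 in both replicates, Wnt9b and Wnt3a in replicate 1 alone, and Wnt10b and Wnt9a in neither. Thus 4 of the 8 clustered genes were marked, by the rule that a promoter region of each replicate names the gene, beside 8.82% of 21631 protein-coding genes. In replicate 1 they were 6 of 8 (12.8% of all protein-coding genes) and in replicate 2 they were 4 of 8 (12.4%). In all pairs the gene of the Wnt1, Wnt6, Wnt3 and Wnt3a side was named in at least 1 replicate. On that side 3 of 4 genes were marked in both replicates and none in neither, while among Wnt9a, Wnt9b, Wnt10a and Wnt10b it was 1 of 4, with 2 in neither. The split into these sides was not planned. Since the genes were chosen with earlier results of these data known, these counts carry no test.

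**Figure D1:**
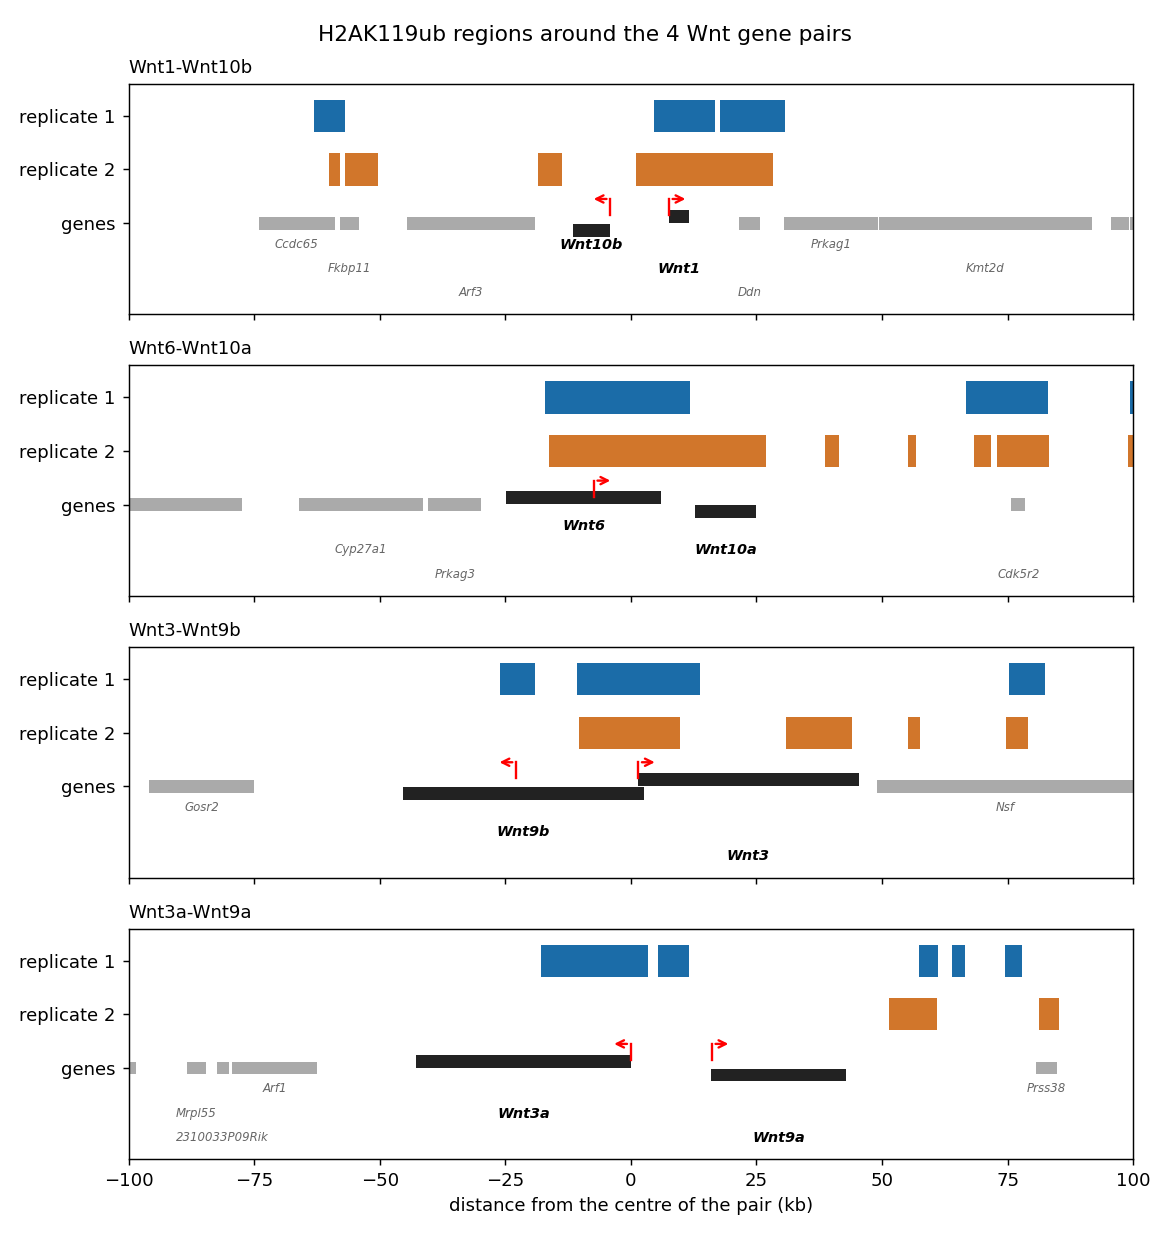
Regions called in replicate 1 (blue) and replicate 2 (orange) around each pair, with protein-coding genes below (the Wnt genes in black, other genes in grey) and the horizontal axis in kb from the centre of the pair. Red arrows stand at the RefSeq start site used for a Wnt gene and point in the direction of transcription; Wnt10a has no arrow. In each replicate 1 region names both Wnt6 and Wnt10a, but in replicate 1 it ends 990 bp before Wnt10a. No region reaches Wnt10b in either replicate, and the Wnt3a and Wnt9a stretch holds regions in replicate 1 alone.

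Wnt6 and Wnt10a formed the most covered of the 4 pairs. Wnt6 is expressed in many surface epithelia, and Wnt10a is the ligand of teeth, hair and papillae named above. A single promoter region named both genes in each replicate, on chromosome 1. It was 28.9 kb wide in replicate 1 (74762124 to 74791029) and 43.4 kb wide in replicate 2 (74762909 to 74806262). These widths were at or above 93.8% and 98.8% of the promoter regions of their lists. The left edges lay 785 bp apart, upstream of Wnt6, whereas the right edges lay 15.2 kb apart.

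That right edge decided how much of Wnt10a was covered. In replicate 1 the region ended 990 bp before the annotated start of Wnt10a (74792019 to 74804176), so 0% of the gene was covered although the region carried its name. In replicate 2 it ran 2086 bp past the other end of the gene and covered 100%. Wnt6 itself (74754342 to 74785322) was covered over 74.9% and 72.3% of its length. Its annotated bounds begin 17.6 kb before the start site in the promoter table, and that start site (74771892) lay inside the region in both replicates. Regions covered 58.0% and 82.8% of the 49.8 kb from Wnt6 to Wnt10a (mean 70.4% ± 17.5, SD, n = 2), and 28.1 kb was covered in both replicates, which is 66.9% of what either covered. Of 9101 pairs of adjacent protein-coding genes spanning between 23.1 and 90.7 kb, the range of the 4 Wnt pairs, 0.791% had a mean coverage as high. Most of these 9101 pairs held no region. Any region was present in 27.4% of them in replicate 1 and 28.4% in replicate 2, and the median coverage was 0% in each.

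Wnt1 and Wnt10b lie head to head, with start sites 11.7 kb apart, and the mark was called over Wnt1 only. Wnt1 is the ligand of the midbrain and hindbrain boundary, and Wnt10b is active in hair follicles, mammary buds and papillae. A promoter region covered 100% of Wnt1 (chromosome 15, 98789857 to 98793830) in both replicates. It was 11.99 kb wide in replicate 1 (98786979 to 98798968) and 27.3 kb wide in replicate 2 (98783305 to 98810589). Of Wnt10b (98770712 to 98778206), 0% was covered in either. The nearest called base lay 8.83 kb from the Wnt10b start site in replicate 1 and 5.16 kb in replicate 2, in both cases at the edge of the Wnt1 region. Regions covered 24.6% and 56.0% of the stretch between the 2 start sites.

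The 250 bases before the start sites of these neighbours are printed here because one lay under the mark in both replicates and the other in neither. They are RefSeq sequences of GRCm38.p6, read 5′ to 3′ on the strand of the gene, with capitals marking CpG dinucleotides. The window of Wnt1 is chr15:98789607-98789856 on the plus strand and that of Wnt10b is chr15:98778151-98778400 on the minus strand.
Wnt1: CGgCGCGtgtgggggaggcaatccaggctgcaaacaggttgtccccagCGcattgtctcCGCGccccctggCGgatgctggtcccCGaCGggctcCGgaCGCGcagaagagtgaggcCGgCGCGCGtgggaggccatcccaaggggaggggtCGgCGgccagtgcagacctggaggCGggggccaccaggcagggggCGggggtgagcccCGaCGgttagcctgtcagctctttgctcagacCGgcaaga
Wnt10b: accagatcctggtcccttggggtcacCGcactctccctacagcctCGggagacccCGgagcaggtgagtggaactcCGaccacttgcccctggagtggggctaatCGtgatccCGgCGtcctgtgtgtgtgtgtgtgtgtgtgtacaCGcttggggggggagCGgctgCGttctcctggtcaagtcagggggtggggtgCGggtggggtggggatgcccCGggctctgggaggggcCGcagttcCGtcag
The Wnt1 window held 23 CpG dinucleotides and the Wnt10b window 14, at 71.6% and 66.8% G and C.

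On its other side Wnt1 shared the mark with Ddn, the gene of dendrin, a protein of synapses and kidney podocytes. In replicate 2 the region of Wnt1 also named Ddn. In replicate 1 Ddn had a promoter region of its own of 12.9 kb, only 1095 bp from that of Wnt1, and both regions with the gap spanned 26.0 kb, close to the 27.3 kb of the single region of replicate 2. Ddn was covered over 100% of its length in both replicates, while Prkag1, the next gene, was covered over 0.732% and 0%. The pair span of 23.1 kb was covered over 29.6% and 45.5% (mean 37.6% ± 11.2, SD, n = 2). Of the adjacent pairs of similar span, 3.63% had a mean coverage as high.

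Wnt3 and Wnt9b also lie head to head, with start sites 24.4 kb apart on chromosome 11. Wnt3 acts in gastrulation and limb outgrowth, and Wnt9b in kidney tubules and in the fusion of the lip and face. A promoter region named Wnt3 in both replicates. Replicate 1 had it at 24.6 kb (103761992 to 103786548) and replicate 2 at 20.02 kb (103762427 to 103782443). It stood nearly astride the start site (103774175), reaching 12.2 and 11.7 kb upstream of it and 12.4 and 8.27 kb downstream. Its left edges lay 435 bp apart and its right edges 4.11 kb apart.

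Each replicate had 1 further region at this pair, in a different place. In replicate 1 a promoter region of 7.06 kb (103746580 to 103753636) named Wnt9b and lay over its start site (103749821), separated from the Wnt3 region by 8.36 kb. In replicate 2 no region lay over that start site, the nearest being the Wnt3 region at 12.6 kb. In replicate 2 a gene body region of 13.1 kb (103803561 to 103816622) lay in the far part of Wnt3, where replicate 1 had none.

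Coverage of the 90.7 kb span was 34.9% and 36.5% (mean 35.7% ± 1.14, SD, n = 2), while only 20.02 kb was covered in both replicates, 44.8% of what either covered. The totals were alike, but most of the covered bases were called in a single replicate. Of the adjacent pairs of similar span, 3.96% had a mean coverage as high. The annotated bounds of Wnt9b (103727362 to 103775272) reach 25.5 kb upstream of its start site in the promoter table and overlap Wnt3. The upstream bound, at 103775272, lay inside the Wnt3 region in both replicates, so that region touches both genes by these bounds. The region carries the name of Wnt3 alone.

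The windows of this pair are chr11:103773925-103774174 on the plus strand for Wnt3 and chr11:103749822-103750071 on the minus strand for Wnt9b, shown because the first lay inside a region in both replicates and the second in replicate 1 alone. Capitals again mark CpG dinucleotides.
Wnt3: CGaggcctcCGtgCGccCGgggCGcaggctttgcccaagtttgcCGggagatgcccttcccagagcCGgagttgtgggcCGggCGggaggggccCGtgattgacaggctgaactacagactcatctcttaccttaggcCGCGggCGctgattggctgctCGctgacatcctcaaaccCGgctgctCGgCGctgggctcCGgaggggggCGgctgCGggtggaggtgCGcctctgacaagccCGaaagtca
Wnt9b: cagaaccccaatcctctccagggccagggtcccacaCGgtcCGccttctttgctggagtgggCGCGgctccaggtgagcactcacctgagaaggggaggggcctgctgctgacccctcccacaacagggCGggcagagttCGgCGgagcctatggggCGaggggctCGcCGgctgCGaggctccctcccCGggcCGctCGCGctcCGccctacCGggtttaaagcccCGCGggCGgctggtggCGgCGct
Each window held 22 CpG dinucleotides, at 68% G and C before Wnt3 and 72% before Wnt9b.

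Wnt3a and Wnt9a were the pair on whose coverage the replicates differed most. Wnt3a acts in the formation of somites and hippocampus, and Wnt9a in joints. In replicate 1 a promoter region of 21.4 kb (chromosome 11, 59272873 to 59294302) named Wnt3a and ran from 3.55 kb upstream of its start site (59290751) to 17.9 kb into the gene, at or above 87.1% of the promoter regions in width. A second, distal region of 6.09 kb (59296279 to 59302372) followed after 1977 bp, named Wnt9a and ended 4.56 kb before the Wnt9a start site (59306930). In replicate 2 there was no region between the outer ends of the 2 genes, and the nearest one lay 51.4 kb from the Wnt3a start site.

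Coverage of the 85.5 kb span was therefore 32.2% in replicate 1 and 0% in replicate 2. Their mean, 16.1%, rests on replicate 1. Without replicate 1 it is 0%. Of the adjacent pairs of similar span, 11.1% had a mean coverage as high. Beyond Wnt9a, both replicates had an intergenic region that began in replicate 1 at 14.7 kb and in replicate 2 at 8.63 kb from the gene end. Its widths were 3.75 and 9.51 kb.

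The window of Wnt9a is shown because it is the richest in CpG of the 7 clustered genes with a start site in the promoter table, and no region lay over it. It is chr11:59306680-59306929 on the plus strand, beside that of Wnt3a, chr11:59290752-59291001 on the minus strand.
Wnt3a: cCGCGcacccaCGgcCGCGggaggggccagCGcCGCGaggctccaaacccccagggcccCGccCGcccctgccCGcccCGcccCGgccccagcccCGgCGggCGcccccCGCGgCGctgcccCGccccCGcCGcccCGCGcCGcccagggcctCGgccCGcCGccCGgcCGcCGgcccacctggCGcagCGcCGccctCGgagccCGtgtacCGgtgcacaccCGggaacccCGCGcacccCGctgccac
Wnt9a: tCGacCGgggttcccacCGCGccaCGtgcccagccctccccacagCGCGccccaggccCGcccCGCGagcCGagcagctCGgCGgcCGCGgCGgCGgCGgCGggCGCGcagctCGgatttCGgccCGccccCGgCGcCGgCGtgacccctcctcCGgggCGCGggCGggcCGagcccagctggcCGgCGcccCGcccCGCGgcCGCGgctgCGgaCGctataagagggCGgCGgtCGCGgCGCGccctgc
Wnt9a had 48 CpG dinucleotides, more than 99.8% of 21045 windows of protein-coding genes, and Wnt3a had 41, more than 98.6%.

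**Figure D2:**
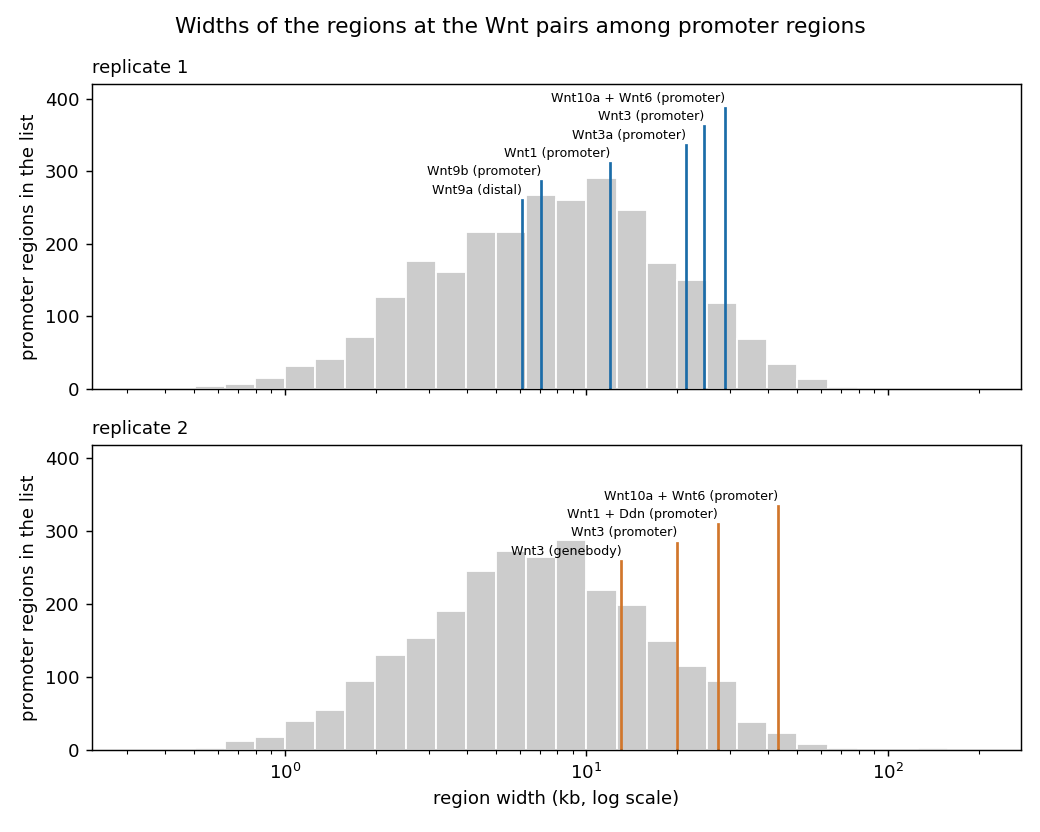
Widths of the regions at the Wnt pairs (coloured lines, with the genes each region names and its location class) over the widths of all promoter regions of the same list (grey bars), with width in kb on a log axis and the number of promoter regions on the vertical axis. The region of Wnt6 and Wnt10a is the widest at these pairs in each replicate, at 28.9 and 43.4 kb, and the distal region of Wnt9a is the narrowest at 6.09 kb.

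Across the 7 start sites in the table (Wnt10a has no entry), those of Wnt1, Wnt6 and Wnt3 lay inside a region in both replicates, those of Wnt9b and Wnt3a in replicate 1 alone and those of Wnt10b and Wnt9a in neither. Of the 21045 start sites of protein-coding genes, 5.41% lay inside a region in both replicates, 8.21% in replicate 1 and 7.81% in replicate 2. All 7 windows held more CpG than the median window, which had 10. The count did not sort covered from uncovered start sites among the Wnt genes, since Wnt10b with 14 and Wnt9a with 48 were both uncovered, while Wnt3 with 22, Wnt1 with 23 and Wnt6 with 28 were covered in both. Over all windows, the share covered in both replicates was 3.74% for those with 0 to 9 CpG, 6.72% for 10 to 19, 6.99% for 20 to 29 and 8.23% for 30 or more.

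Motifs were searched as letters on both strands of the windows. GGGCGG, the GC box bound by Sp factors, was in 6 of 7 windows, up to 9 times before Wnt3a and not before Wnt10b, and in 43.1% of all windows, where adjacent matches may overlap. CTTTGA, the core bound by TCF/LEF factors, was in 0 of 7 against 12.8% of all windows, and TATAAA, the TATA box, in 0 of 7 against 11.7%. A match or its absence describes these letters in these windows only.

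**Figure D3:**
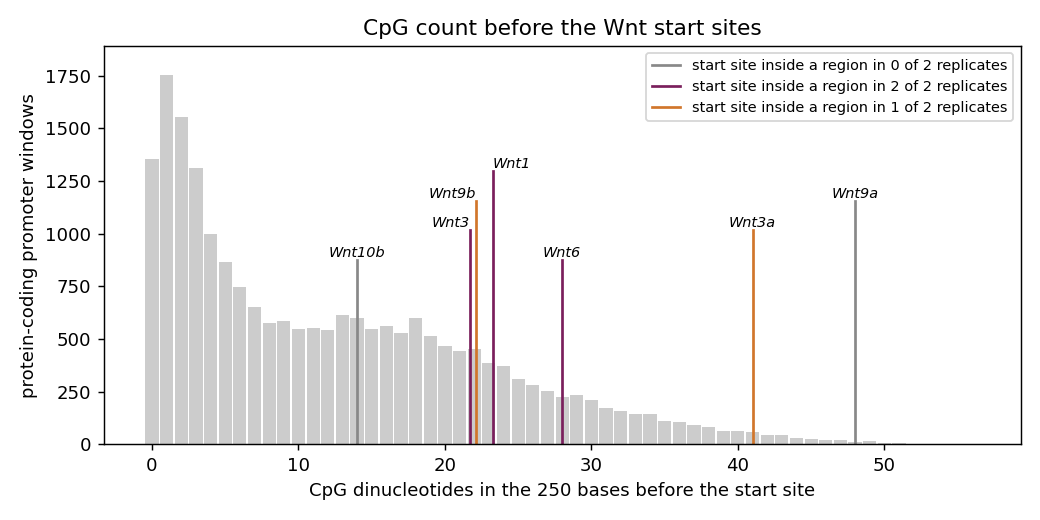
CpG dinucleotides in the 250 bases before the start site of 7 clustered Wnt genes (lines, coloured by the number of replicates in which the start site lay inside a region), over the number of protein-coding windows with each count (grey bars). Wnt3 and Wnt9b both have 22 and are drawn side by side. The 2 uncovered genes, Wnt10b at 14 and Wnt9a at 48, stand at opposite ends of the 7.

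By annotated bounds or names, a common region was found in both replicates for 2 of the 4 pairs, Wnt6 with Wnt10a and Wnt3 with Wnt9b, beside 2.42% of 21611 adjacent pairs of protein-coding genes and 2.12% of those with similar span. For Wnt3 with Wnt9b this rests on the annotated bounds of Wnt9b, which overlap Wnt3, since the region names Wnt3 alone. For Wnt6 with Wnt10a in replicate 1 it rests on the names, since the region ended before Wnt10a. A single region that named both genes in each replicate was found for 1 of 4 pairs, Wnt6 with Wnt10a, beside 1.01% of adjacent pairs. Both genes were marked, in the same or separate regions, in the same 1 of 4 pairs, beside 2.22% of adjacent pairs. In replicate 2 the region of Wnt1 also named Ddn, and in replicate 1 it named Wnt1 alone, while neither named Wnt10b. Wnt3a and Wnt9a had separate regions in replicate 1.

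Apart from the Wnt pairs, 3189 adjacent pairs had symbols with the same letters before the first digit, and 60 of these (1.88%) were under a common region in both replicates. The nearest in width to the Wnt6 and Wnt10a region were those of Dmrt1 with Dmrt3, sex determination and neuronal factors (36.1 and 34.0 kb), of the keratins Krt4 with Krt79 (19.3 and 41.8 kb) and of the homeobox genes Dlx5 with Dlx6 (48.5 and 47.4 kb). Nearest to the Wnt3 region were those of the homeobox genes Hmx2 with Hmx3 (23.0 and 25.9 kb), of the retinoic acid hydroxylases Cyp26a1 with Cyp26c1 (18.2 and 24.3 kb) and of the calcium channel subunits Cacng6 with Cacng8 (16.5 and 17.4 kb). Nearness is the distance of log2 widths over the 2 lists, from 0.38 to 0.76 for these 6, and describes width alone.

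Coverage just outside the pairs ranged widely. Within 10 kb outside Wnt3 with Wnt9b, regions covered 0% and 0.95%, outside Wnt3a with Wnt9a 0% and 6.86%, and outside Wnt6 with Wnt10a 0% and 10.4%. Outside Wnt1 with Wnt10b they covered 44.5% and 73.8%, on the side of Ddn in replicate 1 and on that side and next to Arf3 in replicate 2. To the left of Wnt6 no region was found for 332 and 330.3 kb. To its right, past Wnt10a, lay promoter regions of Cdk5r2, a neuronal activator of the kinase Cdk5 (16.4 and 10.4 kb), and of Fev, a factor of serotonin neurons (10.1 and 28.3 kb), each of which covered 100% of its gene in both replicates.

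Promoter regions named 4 of the other 11 Wnt ligand genes in both replicates, Wnt7a in replicate 2 alone and 6 in neither. Over all protein-coding genes, promoter regions named 8.82% in both replicates, 12.8% in replicate 1 and 12.4% in replicate 2. The marked ones were Wnt11, which acts in kidney and heart (28.2 and 24.4 kb), Wnt7b of lung and skin (25.7 and 12.1 kb), Wnt16 (14.4 and 9.37 kb) and Wnt2b (10.4 and 13.4 kb). The widest of these, at Wnt11, was narrower than the 43.4 kb of Wnt6 with Wnt10a in replicate 2 and close to its 28.9 kb in replicate 1. Regions of any class named 8 of the other 11 ligand genes in both replicates, and 4 of the 8 clustered genes, beside 15.3% of all protein-coding genes. Wnt8b had no promoter region, but regions covered 32.3% and 57.8% of it. Wnt4 had distal regions 19.1 and 2.98 kb away, and 0% of Wnt4, Wnt2 and Wnt5a was covered in either replicate. Wnt5b was covered over 0% and 8.28% and Wnt8a over 13.3% and 0%. The nearest region to Wnt2 lay 480.1 and 480.4 kb away.

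**Figure D4:**
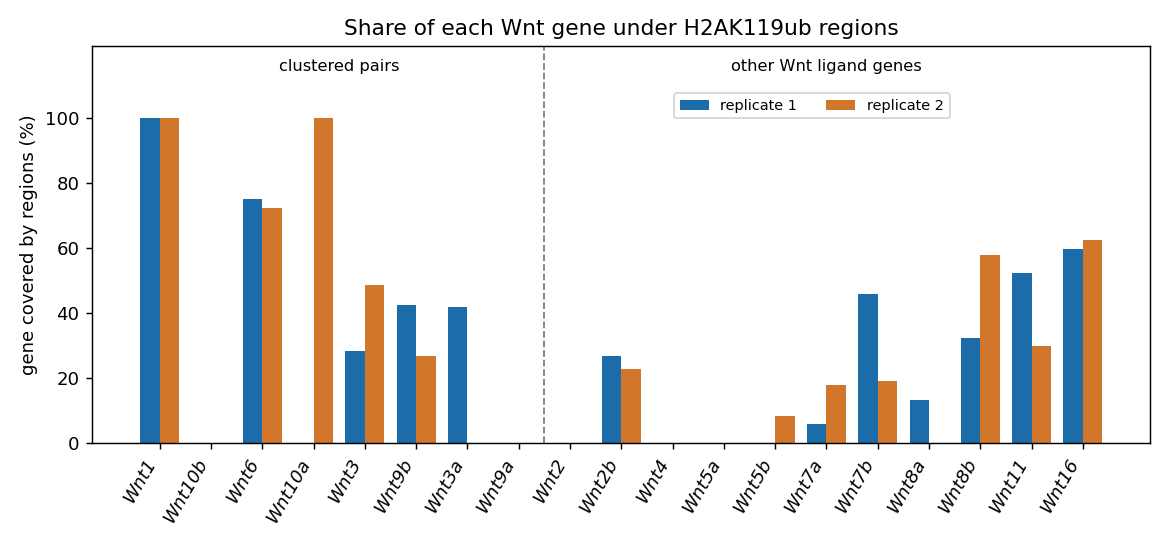
Percent of the annotated length of each of the 19 Wnt ligand genes that lay under regions, in replicate 1 (blue) and replicate 2 (orange), with the 8 clustered genes left of the dashed line. Wnt1 is at 100% in both replicates, Wnt10a at 0% and 100%, Wnt3a at 41.9% and 0%, and Wnt10b and Wnt9a at 0% in both.

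Among the genes of the pathway that encode no Wnt ligand, 18 of 71 listed genes (25.4%) were marked in both replicates, 12 in 1 replicate only and 41 in neither, beside 8.82% of all protein-coding genes. Of 15 receptors and co-receptors, 4 were marked. These were Ror2 (30.3 and 18.0 kb), a receptor of Wnt5a, the Frizzled receptors Fzd10 (17.9 and 14.3 kb) and Fzd9 (5.27 and 5.19 kb), and Lrp5 (4.43 and 2.301 kb), whose own sequence was covered over only 0.13% and 0%. Of 9 R-spondins, Lgr receptors and their E3 ligases, Lgr6 was marked (21.7 and 41.0 kb). Promoter regions named Lgr5, Lgr4 and Rspo1 in replicate 2 alone. Of 16 antagonists 2 were marked, Sost (19.8 and 24.6 kb) and Wif1 (10.1 and 10.3 kb). No promoter region named a Dkk gene in either replicate. Of 4 genes of ligand secretion and release, Notum, an enzyme that removes the lipid of Wnt proteins, was marked (21.5 and 13.2 kb), and Wls and Porcn, needed for secretion, were not.

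The counts of this paragraph stand beside 8.82% of all protein-coding genes marked in both replicates, 12.8% named in replicate 1 and 12.4% in replicate 2. No promoter region named a gene of the cytoplasmic group in either replicate (0 of 9). This group includes Ctnnb1, the gene of beta-catenin, Apc, Axin1, Gsk3b and the Dvl genes. Of 12 nuclear factors, 6 were marked, among them Lef1 (16.6 and 11.8 kb), Tle2 (16.1 and 8.86 kb), Tcf7 (12.8 and 8.54 kb) and Tle1 (8.81 and 6.35 kb). Tle1 itself was covered over only 1.47% and 0%. Lef1 and Tcf7 bind DNA with beta-catenin and the Tle proteins are co-repressors. Of 6 target genes 4 were marked, namely Sp5 (15.1 and 14.0 kb), Axin2 (10.3 and 14.2 kb), Nkd1 (11.4 and 10.7 kb) and Ccnd1 (12.1 and 5.06 kb). Of Ccnd1 itself 0% was covered in either replicate. A promoter region named Myc in replicate 1 alone.

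**Figure D5:**
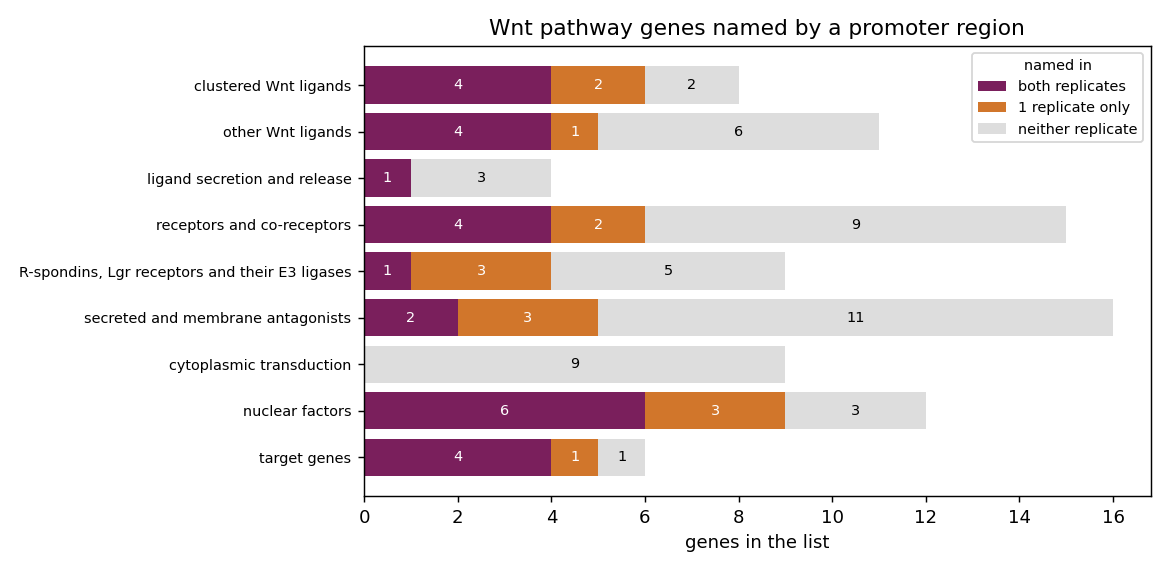
Number of genes in each Wnt pathway list (horizontal axis) that a promoter region named in both replicates, in 1 replicate only or in neither. The clustered ligands have 4, 2 and 2 genes, the nuclear factors 6, 3 and 3, and the cytoplasmic genes 0, 0 and 9. Of all protein-coding genes, 8.82% were named in both replicates.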

How the data were processed

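For each H2AK119ub replicate the authors deposited a separate list of regions, so calling was per sample. Per the file headers, a list holds chromosome, start, end, location class and gene, in mm10. Per the submitters' processing notes, the tools included Bowtie2 (2.3.3) and SAMtools (0.1.19), whose roles are not stated. The caller, its settings, its use of the input and the coordinate base, which can shift an overlap by 1 bp, are likewise not given in the sources.

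Gene bounds came from RefSeq (GRCm38.p6, the assembly mm10 also names), for protein-coding genes of autosomes and chromosome X. Names were matched by symbol, then by a synonym held by 1 gene. Start sites and 250-base windows came from the RefSeq promoter table, in which 7 of the 8 clustered genes had an entry. Wnt10a and, among the other ligands, Wnt5a, Wnt7b and Wnt8a had none. Overlap was counted from 1 bp, and interval code was checked on simulated regions. Width is end minus start. With 1 group, no test was run. Protein sequences were not used here, so a planned comparison of protein identity was not made.

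The members and gene lists were chosen with earlier results of these data known. Genes named are the 19 ligands, genes sharing a region with a clustered gene, the nearest genes beside each pair, up to 4 marked genes per pathway list with the widest regions, and the adjacent same-letter pairs nearest in width. Other genes named, and the additional genes given for pathway lists, were chosen after their values were seen. Alternatives were other rules tying genes to regions, other spans, wide or reciprocally shared regions and each replicate alone. Python 3.11.15, numpy 2.4.6, pandas 2.3.3 and matplotlib 3.10.9 were used.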

Additional observations from a re-analysis of the deposited data

How the results depend on the processing

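For 11 results, 79 values were computed under alternatives, of which 71 stayed within the tolerance set and 0 reversed. The tolerance was 1.5 times the main count for counts and 1 SD over the 2 replicates for coverage and width, so values within it could still differ from the main ones. The number of clustered genes marked (4, beside 8.82% of all protein-coding genes) ranged from 3 to 6. It was 3 with the start site inside a region in both replicates, beside 4.44%. Both shares include genes without an entry in the promoter table, such as Wnt10a, which could not meet that rule. The number of clustered genes marked was 6 without replicate 2, beside 12.8%, and in either replicate, beside 16.4%. With regions overlapping the gene it was again 4, beside 13.3%, but with Wnt9b in place of Wnt10a. The number of marked pathway genes, the other 11 ligands included, was 22 of 82, beside 8.82% of all protein-coding genes. It was 37 with regions of any class, beside 15.3%, and 35 in either replicate, beside 16.4%. With the start site inside a region, a rule that only genes in the promoter table could meet, it was 14, beside 4.44%. When each region had to share at least 50% with one of the other replicate, coverage of Wnt1 with Wnt10b and the width of its region fell from 37.6% and 19.6 kb to 0% and 0 kb, since replicate 2 has 1 region where replicate 1 has 2. Wnt3a with Wnt9a fell from 16.1% and 10.7 kb to 0% and 0 kb, within its SD of 22.8% and 15.2 kb, since replicate 2 has no region there. Coverage of Wnt3 with Wnt9b was then 24.6%, and it was 32.1% with 5000 bp added on each side. Pairs with a common region numbered 2, and 1 when a region had to name both genes. With 2 replicates, leaving out 1 keeps a mean within its SD by construction, also for Wnt3a with Wnt9a, at 0% without replicate 1 and 32.2% without replicate 2. The start-site rules and the naming of both genes by 1 region were chosen after seeing the data. No paired analysis was possible because 1 group alone had lists of regions. The lists give no depth, so a region missing from 1 replicate may be below its detection limit, which was not tested.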

Other observations

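The pairs also have related genes as neighbours. The small GTPase genes Arf3, Arf1 and Arf2 lie 7.59 kb from Wnt10b, 19.8 kb from Wnt3a and 149 kb from Wnt3, and 0% of each was covered in both replicates, although a 4.77 kb promoter region beside Arf3 carried its name in replicate 2. The genes Prkag1 and Prkag3 encode regulatory subunits of the energy-sensing kinase AMPK and lie 18.97 kb from Wnt1 and 4.87 kb from Wnt6. No promoter region named either one in either replicate, and coverage was at most 0.732%, for Prkag1 in replicate 1. Nsf, a vesicle fusion ATPase gene 3.76 kb from Wnt3, was covered over 18.4% and 10.3% by gene body regions. Gosr2, a Golgi transport gene 29.6 kb from Wnt9b, had 0% covered in both replicates. Rprml, 76.8 kb from Wnt9b, was covered over 100% in replicate 2 by a 14.9 kb promoter region and over 0% in replicate 1. Prss38, a protease gene 37.9 kb from Wnt9a, likewise had a promoter region in replicate 2 alone (4.03 kb).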
